A study of Mus musculus with 4 samples.

Results

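The 9 genes described here encode enzymes that carry pyruvate into the mitochondrial tricarboxylic acid (TCA) cycle and drive the cycle itself. They are Pcx, Pdha1, Cs, Idh3a, Idh2, Ogdh, Sucla2, Fh1 and Mdh2, chosen by name, and all 9 were found among 13085 genes by the RefSeq identifier of their row. RNA-seq was performed on 4 stable derivatives of 3T3-L1, mouse preadipocytes that fill with lipid when treated with adipogenic hormones. FLAG cells carried the empty FLAG vector, FLAG-CACUL1 cells expressed FLAG-tagged CACUL1, sh-Luc cells expressed a hairpin against luciferase, and sh-CACUL1 cells expressed a hairpin against CACUL1. FLAG lines were selected with G418 and sh lines with hygromycin B, from drug-resistant colonies, and it is not stated whether a line was 1 clone or a pool. To start adipogenesis all 4 lines received rosiglitazone (5 µM) and IBMX (0.5 mM) together with dexamethasone (1 µg/ml) and insulin (5 µg/ml), then insulin alone, and RNA was taken after 8 days. CACUL1 is a cullin-domain protein studied here in relation to PPARγ, the nuclear receptor that directs fat cell formation, and the comparisons ask how the level of CACUL1 bears on gene expression during adipogenesis. Each line was sequenced once, so no difference has a replicate check and no test between conditions was possible.

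Pyruvate from glycolysis enters the mitochondrion and has a choice of fates. Pyruvate dehydrogenase turns it into acetyl-CoA, while pyruvate carboxylase turns it into oxaloacetate, the acceptor with which acetyl-CoA forms citrate. In fat cells much of that citrate leaves the mitochondrion and supplies acetyl-CoA for fatty acid synthesis, so that pyruvate carboxylase, which replaces the lost oxaloacetate, is known as a lipogenic enzyme of adipocytes. The remaining enzymes oxidize citrate back to oxaloacetate and yield the reduced cofactors used by the respiratory chain.

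The deposited unit is FPKM, a fragment count corrected for sequencing depth and transcript length, so levels of different genes can be set side by side. Fold changes are given on the log2 scale after 1 FPKM was added, each condition set against the control of the same vector, and genes at 2-fold or more are counted. The files give no read totals, but the steps between low FPKM values put the depth at about 14300000 to 14900000 fragments in FLAG, FLAG-CACUL1 and sh-CACUL1 and at about 24000000 in sh-Luc, 1.68 times the shallowest library. Between 720 and 21385 fragments then stood behind each of the 36 member values, and the counting error of a log2 ratio (95% exact binomial interval) reached 0.04 to 0.13 to either side. This interval covers counting only and not the spread between cultures. Cacul1 itself had 9.61 FPKM in FLAG and 11.8 in FLAG-CACUL1, beside 10.2 for sh-Luc and 5.39 for sh-CACUL1, and whether reads of the FLAG construct entered this row is not known. All 11 adipocyte markers listed (Pparg, Cebpa, Adipoq, Fabp4, Plin1, Cidec, Lpl, Cd36, Retn, Cfd and Scd1) had a row in the files. Their summed level was 10472 FPKM in FLAG and 938 in FLAG-CACUL1, beside 1784 for sh-Luc and 18809 for sh-CACUL1. Relative to the control of the same vector all 11 stood at least 2-fold below it in FLAG-CACUL1 and at least 2-fold above it in sh-CACUL1, while against the control of the other vector 5 were that much lower in FLAG-CACUL1, and in sh-CACUL1 4 were that much higher and 2 that much lower. Against the control of the other vector 4.87% of all genes were that much lower in FLAG-CACUL1. In sh-CACUL1 7.45% of all genes were then that much higher and 15.4% that much lower. Between the controls 10 of the 11 markers were that much higher in FLAG than in sh-Luc, beside 8.58% of all genes. Against the control of the same vector 7.22% of all genes were that much lower in FLAG-CACUL1 and 4.94% that much higher in sh-CACUL1. The summed level of 8 preadipocyte and fibroblast markers was 7127 FPKM in FLAG and 8064 in FLAG-CACUL1, beside 4575 for sh-Luc and 1031 for sh-CACUL1, and most of it came from Col1a1, Col3a1 and Vim. The 8 did not share a direction. In FLAG-CACUL1 4 were at least 2-fold higher and Dlk1 was that much lower, and in sh-CACUL1 6 were that much lower whereas Dlk1 (0.22 FPKM in sh-Luc, 21.2 in sh-CACUL1) and Thy1 (0.663 and 34.3) were higher. Of all genes 7.51% were that much higher in FLAG-CACUL1 and 16.4% that much lower in sh-CACUL1. In such bulk samples fewer fat cells and less of a transcript per cell cannot be told apart. Of the macrophage markers only Cd68 and Csf1r had a row. Their sum was 16.8 FPKM in FLAG and between 1.08 and 1.84 in the other lines. Of the endothelial markers only Pecam1 had a row, with at most 0.301 FPKM, and of 4 brown adipocyte markers none did. All rows were above 0 in all 4 samples, so a gene without a row may have been at 0 in as few as 1 of them.

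Pyruvate carboxylase (Pcx; NM_001162946 and NM_008797 in a single row) stood apart from the other enzymes in both comparisons. The gene spans 4510472 to 4621752 on the plus strand of chromosome 19 (GRCm38, the build of all gene positions given here). Its level was 216 FPKM in FLAG and 29.8 FPKM in FLAG-CACUL1, a 7.24-fold lower level and a log2 fold change of -2.82. In sh-CACUL1 the level was 349.5 FPKM, beside 84.3 FPKM for sh-Luc, a 4.15-fold higher level and a log2 fold change of 2.04. The level was thus highest in sh-CACUL1, then FLAG, then sh-Luc, and lowest in FLAG-CACUL1. The summed adipocyte markers had the same order, with Fabp4 as the largest part of the sum in sh-CACUL1 (12543 FPKM) and in FLAG (4991). Taken singly, Adipoq, Fabp4, Cidec, Cd36 and Cfd had this order, whereas Pparg, Cebpa, Plin1, Lpl, Retn and Scd1 did not. Of all genes 0.6% had a lower value than Pcx in the FLAG-CACUL1 comparison, and 99.0% had a lower value in the sh-CACUL1 comparison. The controls also differed, with Pcx 2.56-fold higher in FLAG than in sh-Luc. Set against the control with the other vector, Pcx was still 2.83-fold lower in FLAG-CACUL1 (log2 fold change of -1.47), but in sh-CACUL1 it was only 1.62-fold higher (0.69), under the 2-fold line. The part of the adipocyte markers in these values was not tested. The annotated span of Pcx overlaps Lrfn4 on the opposite strand, as those of Pdha1 and Fh1 overlap Map3k15 and Kmo, and whether the counting used strand is not stated.

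**Figure D1:**
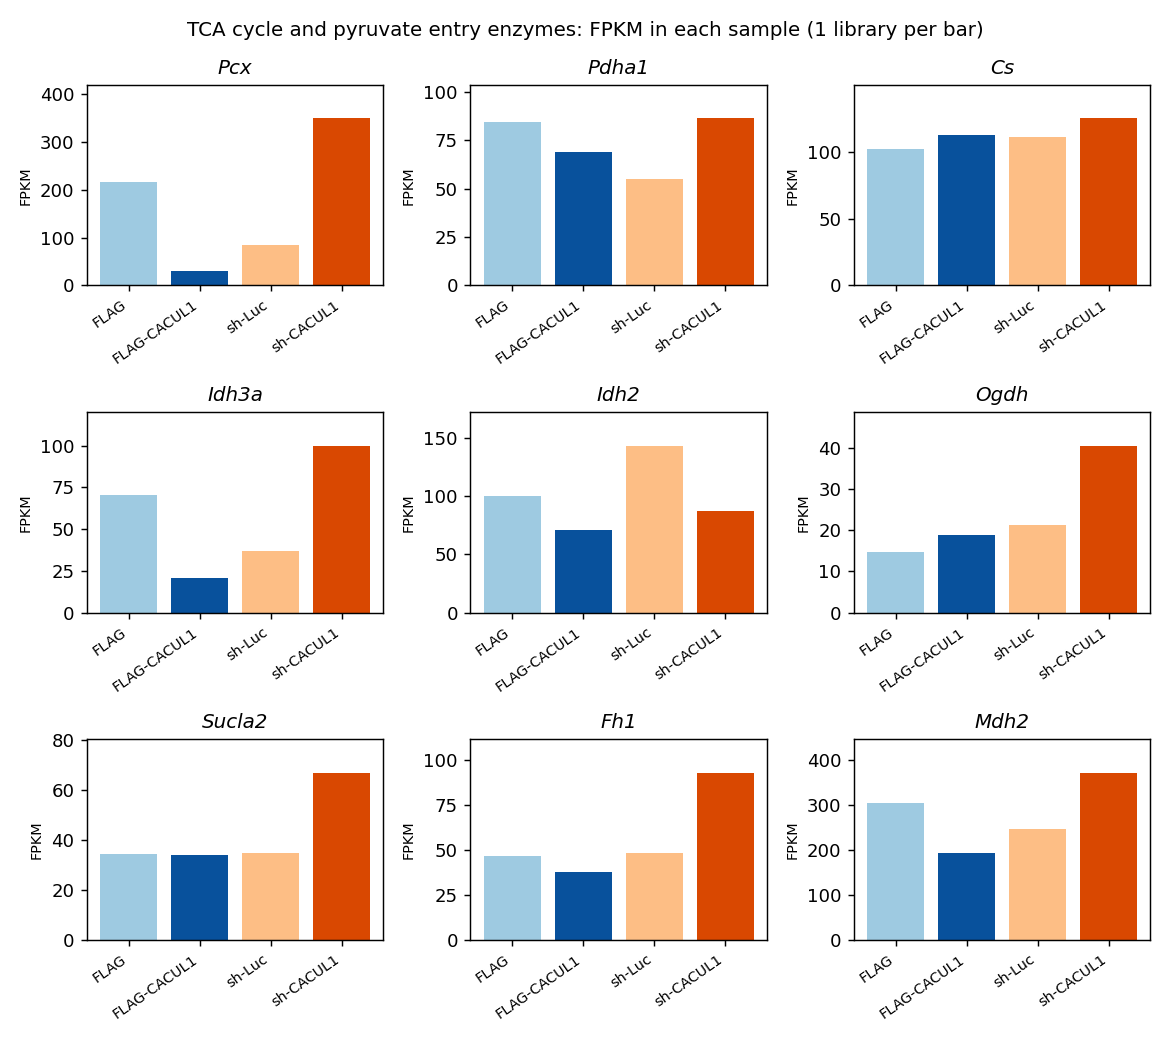
Bars give the FPKM of each of the 9 enzymes in the 4 lines, with 1 library per bar, no error bars and an axis of its own from 0 for each gene. Pcx ranged from 29.8 to 349.5 FPKM and Idh3a from 21.0 to 100.1 FPKM, whereas Cs stayed between 102 and 125 FPKM.

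Pcx is transcribed from more than 1 promoter, and PPARγ is known to act on the gene in adipocytes. The RefSeq table (GRCm38.p6) holds a pair of start sites for it, and both windows, from 250 bases before to 50 bases after the start, are shown because Pcx had the largest difference of the 9 genes. The row of Pcx joins its transcripts, so the use of each promoter could not be read from these data. Capitals would mark any of the 7 motifs searched on both strands, and neither window held one.

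Pcx, upstream start site (chr19:4510222-4510521, plus strand): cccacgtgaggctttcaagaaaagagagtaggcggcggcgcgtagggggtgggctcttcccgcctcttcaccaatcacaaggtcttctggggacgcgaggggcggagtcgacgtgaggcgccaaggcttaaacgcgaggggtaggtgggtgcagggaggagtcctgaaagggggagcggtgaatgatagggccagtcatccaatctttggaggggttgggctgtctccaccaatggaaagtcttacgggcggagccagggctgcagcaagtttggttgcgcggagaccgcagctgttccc

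Pcx, downstream start site (chr19:4594069-4594368, plus strand): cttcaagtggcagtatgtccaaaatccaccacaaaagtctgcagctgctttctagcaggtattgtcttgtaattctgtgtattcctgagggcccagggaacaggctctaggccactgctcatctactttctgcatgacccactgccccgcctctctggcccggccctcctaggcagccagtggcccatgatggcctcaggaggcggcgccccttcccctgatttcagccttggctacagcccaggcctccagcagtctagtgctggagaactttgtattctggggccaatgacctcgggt

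The motifs were TCAAGGTCA for estrogen-related receptors, TCAAAGGTC for the centre of the PPAR direct repeat, GCGCATGCG for NRF1, TGACGTCA for the cAMP response element, CACGTGAC for upstream stimulatory factor, CCGGAAGT for the ETS site of GABP and GGGCGGGG for the GC box of Sp1. Their shares among 32851 promoter windows of 300 bases were 0.423%, 0.295%, 1.75%, 1.79%, 2.25%, 3.89% and 17.6%, respectively. Of the 9 genes, 8 had 14 windows in the table. Neither the estrogen-related receptor motif, nor the PPAR centre, nor the ETS motif occurred in any of the 14. The absence of these letters says nothing on whether a factor binds there. Mdh2 and Ogdh are shown as the genes with a cAMP response element. Both differed less than Pcx from the control of the same vector, as did all the other enzymes. Among those, Fh1, Idh2 and Pdha1 held none of the 7 motifs either, and a link between motifs and differences was not tested. The capitals mark that element and a GC box in each of them. In Mdh2 the element begins at position -127 relative to the start site, and in the first window of Ogdh at -51.

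Mdh2 (chr5:135778399-135778698, plus strand): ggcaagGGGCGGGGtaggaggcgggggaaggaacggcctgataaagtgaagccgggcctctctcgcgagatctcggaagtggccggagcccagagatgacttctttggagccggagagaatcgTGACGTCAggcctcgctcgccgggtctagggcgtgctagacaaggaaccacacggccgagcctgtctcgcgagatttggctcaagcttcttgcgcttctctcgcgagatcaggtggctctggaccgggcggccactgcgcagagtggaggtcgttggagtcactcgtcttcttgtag

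Ogdh, first of 6 windows (chr11:6291347-6291646, plus strand): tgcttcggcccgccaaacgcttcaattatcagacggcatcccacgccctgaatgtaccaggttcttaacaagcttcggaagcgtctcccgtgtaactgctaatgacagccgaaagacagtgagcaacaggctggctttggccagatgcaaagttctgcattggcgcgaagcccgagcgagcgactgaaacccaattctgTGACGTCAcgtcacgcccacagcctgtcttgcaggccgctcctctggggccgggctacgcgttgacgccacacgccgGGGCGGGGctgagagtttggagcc

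Other Ogdh windows held the upstream stimulatory factor motif (1 window) and the NRF1 motif (2 overlapping windows), and GC boxes also occurred in Cs and Sucla2.

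The other route for pyruvate is represented by Pdha1 (NM_008810), the alpha subunit of the E1 component of pyruvate dehydrogenase, on the minus strand of chromosome X from 160122209 to 160138413. It had 84.7 FPKM in FLAG and 68.8 in FLAG-CACUL1, beside 54.9 for sh-Luc and 86.4 for sh-CACUL1. FLAG and sh-CACUL1 were nearly level, and the log2 fold changes were both under 2-fold, at -0.30 for FLAG-CACUL1 and 0.65 for sh-CACUL1. Against the control with the other vector the sign in FLAG-CACUL1 turned, to 0.32. About 2.38% of the 31-base stretches of its transcript also occur in other annotated genes, most of them in 4930519F09Rik, so a small part of its reads may be shared.

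The ratio of Pcx to a gene of the other route does not depend on a scaling factor applied to a whole sample, because both levels come from the same library. Quantile normalization is not such a factor and can change the ratio. The pairs of genes set against each other here were chosen after their values were seen. Pcx was 2.55 times the level of Pdha1 in FLAG and 0.434 times in FLAG-CACUL1. In sh-Luc the ratio was 1.54, and in sh-CACUL1 it was 4.05. Pcx transcripts thus exceeded those of Pdha1 in every line but FLAG-CACUL1. With Pdhb, the other subunit of E1, in place of Pdha1, the ratio was 2.22 in FLAG and 0.730 in FLAG-CACUL1, but 1.31 in sh-Luc and only 1.58 in sh-CACUL1, so that the difference in the sh pair depended on the subunit chosen. Against citrate synthase the ratio of Pcx went from 2.13 in FLAG to 0.265 in FLAG-CACUL1, and from 0.762 in sh-Luc to 2.80 in sh-CACUL1.

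Citrate synthase (Cs, NM_026444), which joins acetyl-CoA and oxaloacetate at the entrance of the cycle and is widely used as a measure of mitochondrial content, varied least. Its gene lies on the plus strand of chromosome 10 from 128337734 to 128362479. It had 102 FPKM in FLAG and 112 in FLAG-CACUL1, beside 111 for sh-Luc and 125 for sh-CACUL1. The log2 fold change was 0.15 in FLAG-CACUL1, which median-of-ratios scaling took to -0.01, and 0.17 in sh-CACUL1. Its transcript shares 8.6% of its 31-base stretches with other genes, most of them with Csl, so the value may hold some reads of that gene.

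Idh3a (NM_029573), the catalytic alpha subunit of the NAD-dependent isocitrate dehydrogenase, was the only other enzyme of the 9 at 2-fold or more in both comparisons. Its gene lies on the plus strand of chromosome 9 from 54586334 to 54604661. It had 70.8 FPKM in FLAG and 21.0 FPKM in FLAG-CACUL1, a 3.38-fold lower level. In sh-CACUL1 the level was 100.1 FPKM, beside 36.8 FPKM for sh-Luc, a 2.72-fold higher level. The log2 fold changes were -1.71 and 1.42, and the order of the 4 lines was that of Pcx. With the other control both differences kept their sign but were under 2-fold, at -0.78 and 0.49.

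Relative to the control of the same vector the partner subunits of Idh3a were lower in FLAG-CACUL1 and higher in sh-CACUL1 too, by smaller amounts. Idh3b, a regulatory subunit, had log2 fold changes of -0.54 and 0.97, and Idh3g, the other regulatory subunit, of -1.10 and 1.04. With the other control Idh3b was at -0.08 and 0.51, and Idh3g at 0.03 and -0.08. The ratio of Idh3a to Idh3b was 0.667 in FLAG and 0.289 in FLAG-CACUL1, beside 0.480 for sh-Luc and 0.660 for sh-CACUL1. The alpha transcript was thus scarcest relative to beta in FLAG-CACUL1.

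Idh2 (NM_173011), the mitochondrial NADP-dependent isocitrate dehydrogenase, which supplies NADPH, stood below the control in both comparisons. Its gene lies on the minus strand of chromosome 7 from 80094846 to 80115392. It had 99.7 FPKM in FLAG and 70.8 in FLAG-CACUL1, beside 143 for sh-Luc and 86.7 for sh-CACUL1. The log2 fold changes were -0.49 and -0.72, each under 2-fold, and this was the single enzyme of the 9 that was lower in sh-CACUL1. The sign was kept under both other scalings, with values of -0.27 and -0.54 in sh-CACUL1. Idh2 stood at 1.41 times the level of Idh3a in FLAG and 3.38 times in FLAG-CACUL1, beside 3.89 times for sh-Luc and 0.866 times for sh-CACUL1. The lines with the lower adipocyte markers, FLAG-CACUL1 and sh-Luc, had the higher ratios.

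**Figure D2:**
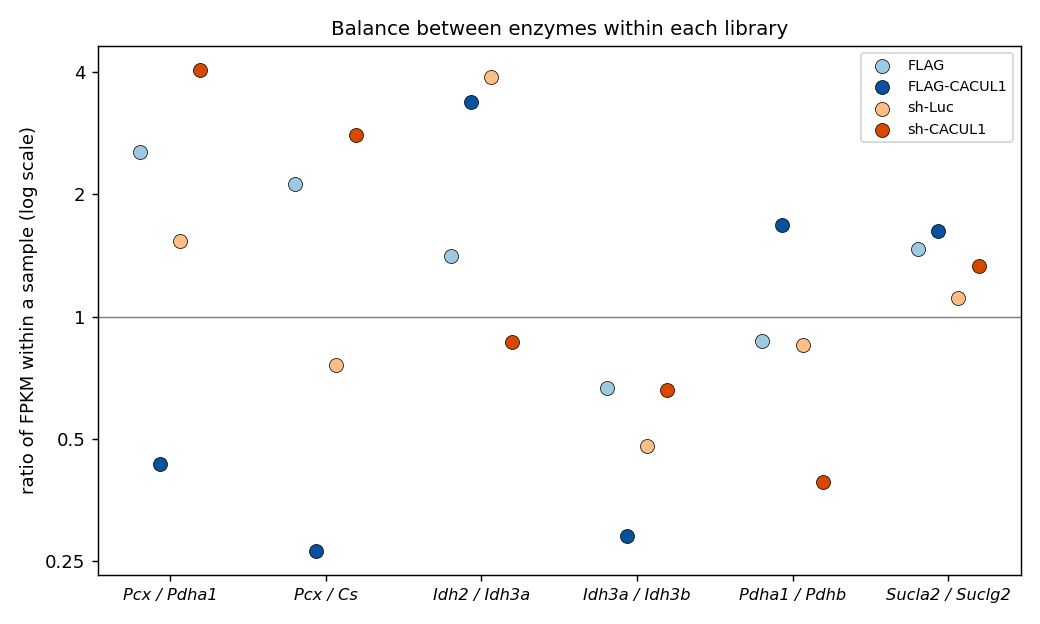
Points give the ratio of FPKM of a pair of genes within each library on a log2-spaced axis, coloured by line, with 1 library per point. The ratio of Pcx to Pdha1 spans 0.434 to 4.05, that of Idh2 to Idh3a 0.866 to 3.89, and that of Sucla2 to Suclg2 only 1.11 to 1.63.

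Ogdh, Sucla2 and Fh1 act in this order, though not all at adjacent steps, on the way from 2-oxoglutarate to malate. These enzymes lay between -0.30 and 0.34 on the log2 scale in FLAG-CACUL1 and just under 2-fold in sh-CACUL1. Ogdh, the E1 component of the 2-oxoglutarate dehydrogenase complex, lies on the plus strand of chromosome 11 from 6291633 to 6356642, and its row joins 5 RefSeq transcripts. It was the lowest of the 9 in every line, with 14.7 FPKM in FLAG and 19.0 in FLAG-CACUL1, beside 21.4 for sh-Luc and 40.6 for sh-CACUL1. Its log2 fold changes were 0.34 and 0.89. Against the control with the other vector its value was -0.16 for FLAG-CACUL1 and 1.40 for sh-CACUL1, so that Ogdh was then the one enzyme at 2-fold or more in sh-CACUL1.

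Sucla2 (NM_011506) encodes the beta subunit of the ATP-forming succinyl-CoA synthetase, on the plus strand of chromosome 14 from 73525319 to 73596142. It had 34.2 FPKM in FLAG and 34.1 in FLAG-CACUL1, beside 34.9 for sh-Luc and 66.9 for sh-CACUL1. The first 3 lines were level and sh-CACUL1 stood alone at a 1.92-fold higher level, a log2 fold change of 0.92. Its ratio to Suclg2, the GTP-forming counterpart, was 1.47, 1.63, 1.11 and 1.33 in the same order.

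Fh1 (NM_010209; fumarase, which hydrates fumarate to malate), on the minus strand of chromosome 1 from 175600374 to 175625635, had 46.5 FPKM in FLAG and 37.6 in FLAG-CACUL1, beside 48.2 for sh-Luc and 92.8 for sh-CACUL1. Again sh-CACUL1 stood alone, 1.93-fold above sh-Luc (log2 fold change of 0.93), while FLAG-CACUL1 was at -0.30.

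Mdh2 (NM_008617), the mitochondrial malate dehydrogenase that closes the cycle, lies on the plus strand of chromosome 5 from 135778480 to 135790398 and was the most abundant of the 9 in every line. It had 304 FPKM in FLAG and 193 in FLAG-CACUL1, beside 247 for sh-Luc and 371 for sh-CACUL1. The log2 fold changes were -0.65 and 0.59. Mdh1, the cytosolic malate dehydrogenase, differed more, with log2 fold changes of -1.14 and 1.53, and the ratio of Mdh2 to Mdh1 was 2.70 in FLAG and 3.83 in FLAG-CACUL1, beside 2.23 for sh-Luc and 1.16 for sh-CACUL1.

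Counted together, FLAG-CACUL1 had 2 of the 9 enzymes (Pcx and Idh3a) at least 2-fold below FLAG and none that far above it. Among all 13085 genes 7.22% were that much lower and 7.51% that much higher, so that 51.0% of these were higher, a share that median-of-ratios scaling took to 38.3%. The median log2 fold change of the 9 was -0.30, beside 0.09 for all genes, and 7 of 9 were below 0. With the other control the count of lower enzymes was also 2, but for Pcx and Idh2 (log2 fold change of -1.01), not Idh3a, beside 4.87% of all genes lower and 5.04% higher.

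In sh-CACUL1 the same 2 enzymes, Pcx and Idh3a, were at least 2-fold higher than in sh-Luc and none was that much lower. Of all genes 4.94% were that much higher and 16.4% that much lower. The median log2 fold change of the 9 was 0.89, whereas that of all genes was -0.30, and 8 of 9 were above 0. Ogdh, Sucla2 and Fh1 lay between 0.89 and 0.93, just under the line at 1. Their side of the line depended on the scaling between samples. Median-of-ratios scaling moved the median of all genes by 0.30 to 0 and put 7 of the 9 at 2-fold or more, all but Cs and Idh2, beside 9.06% of all genes. Quantile normalization put 5 of the 9 there (Pcx, Idh3a, Ogdh, Sucla2 and Fh1), beside 9.0% of all genes. With the other control 1 of the 9 (Ogdh) was at least 2-fold higher and none was that much lower, beside 7.45% and 15.4% of all genes. Under all 3 scalings Pcx and Idh3a were above the line and Idh2 was below 0 in the comparison with sh-Luc. The share of higher genes among all genes at 2-fold was 23.2% as deposited, 53.9% after median-of-ratios scaling and 52.1% after quantile normalization.

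**Figure D3:**
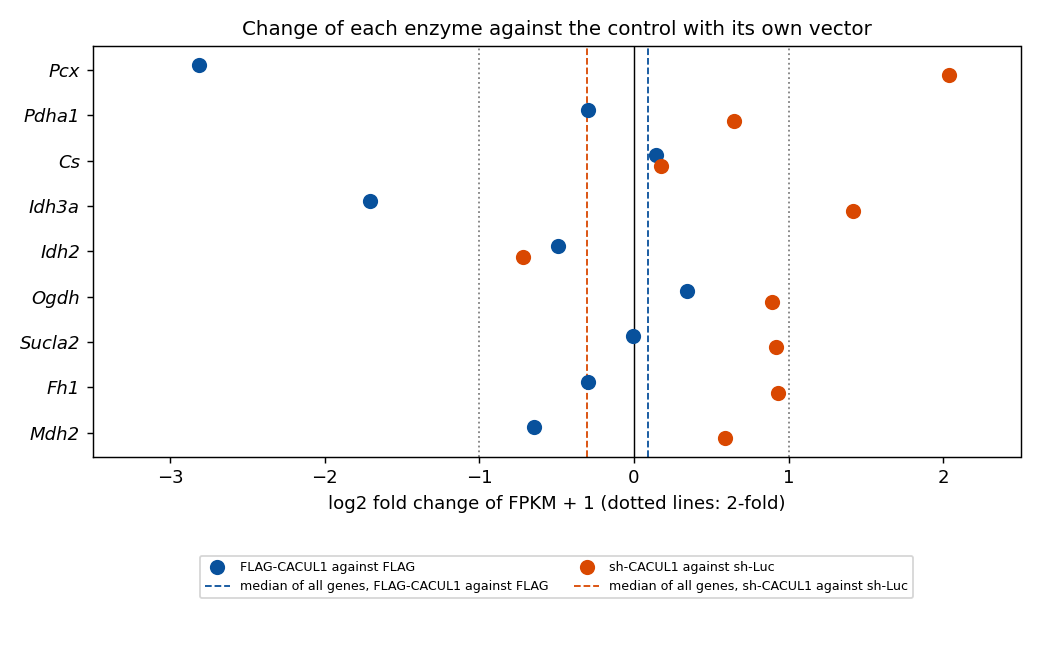
Points give the log2 fold change of FPKM + 1 of each enzyme in FLAG-CACUL1 against FLAG (blue) and in sh-CACUL1 against sh-Luc (orange), with 1 library per arm. Dashed lines mark the median of all genes in each comparison, 0.09 and -0.30, and dotted lines mark 2-fold. Pcx and Idh3a lie outside the dotted lines on opposite sides, and Idh2 is left of 0 in both.

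**Figure D4:**
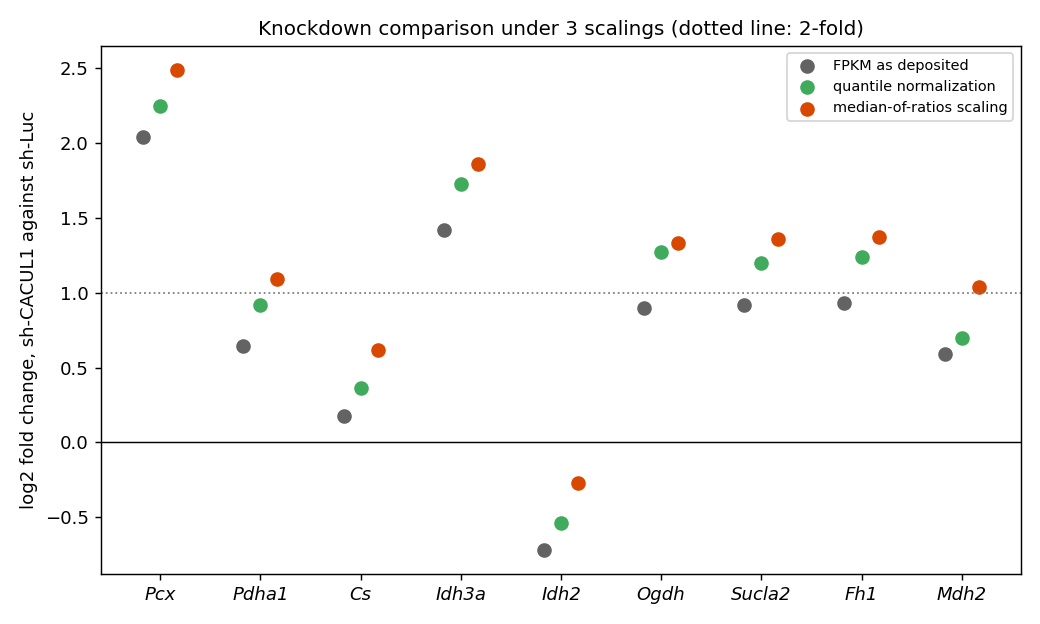
Points give the log2 fold change of each enzyme in sh-CACUL1 against sh-Luc from FPKM as deposited, after quantile normalization and after median-of-ratios scaling. The dotted line marks 2-fold. As deposited 2 enzymes are above it, and after the other scalings 5 and 7 are.

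The FLAG and sh-Luc controls were compared for background, since they differ in vector and drug and not in a CACUL1 construct. Only Pcx was at least 2-fold higher in FLAG (log2 fold change of 1.35), and none of the 9 was that much lower, beside 8.58% and 12.4% of all genes. Of all genes at 2-fold between the controls 40.8% were higher in FLAG, and 62.8% and 54.1% after median-of-ratios scaling and quantile normalization. The difference of Idh3a between the controls was 0.92 and that of Pdha1 was 0.62. For the other 6 it lay between -0.52 and 0.30. The difference of Pcx between the controls was smaller in size than its own-vector differences (-2.82 and 2.04), but these use the same control samples. Against the other control Pcx was at -1.47 in FLAG-CACUL1. In sh-CACUL1 it was then at 0.69, less than the difference between the controls.

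The summed FPKM of the 9 enzymes was 972 in FLAG and 587 in FLAG-CACUL1, beside 781 for sh-Luc and 1319 for sh-CACUL1. Without Mdh2 and Pcx the sums were 452, 364, 450 and 598. The controls were then nearly level, but these sums join differences in both directions. Idh3a and Pdha1 were higher in FLAG than in sh-Luc, and Idh2, Cs, Ogdh, Sucla2 and Fh1 were lower.

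The rest of the cycle was read from a list of 10 further enzymes and subunits (Idh3b, Idh3g, Dlst, Dld, Suclg1, Suclg2, Sdha, Sdhb, Sdhc and Sdhd). All 10 were above 0 in sh-CACUL1, with values from 0.45 to 1.29 and a median of 0.85 on the log2 scale, and the sign held under both other scalings. At 2-fold or more were 3 of them (8 after median-of-ratios scaling and 6 after quantile normalization), Dld (1.29), the E3 subunit shared by the 2-oxo acid dehydrogenases, Sdhd (1.15), a membrane anchor of succinate dehydrogenase, and Idh3g (1.04). In FLAG-CACUL1 7 of the 10 were below 0, with a median of -0.54, and Idh3g (-1.10) and Suclg1 (-1.06), the alpha subunit of succinyl-CoA synthetase, were at least 2-fold lower. Against the control of the same vector 4.94% of all genes were at least 2-fold higher in sh-CACUL1 and 7.22% that much lower in FLAG-CACUL1. With the other control 9 of the 10 were above 0 in sh-CACUL1. None was then at 2-fold in FLAG-CACUL1, beside 5.04% of all genes higher and 4.87% lower. The 3 at 2-fold or more in sh-CACUL1 were then Sdhd (1.37), Dlst (1.11) and Suclg2 (1.08), beside 7.45% of all genes. Dld was at 0.92 there and Idh3g at -0.08.

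Around pyruvate entry, 12 further genes were listed. Beside 4.94% of all genes, 5 of these 12 were at least 2-fold higher in sh-CACUL1. These were Mpc1 (log2 fold change of 1.86) and Mpc2 (1.03), which form the mitochondrial pyruvate carrier, Pdhb (1.76), the beta subunit of E1, Dlat (1.53), the E2 subunit, and Pdk2 (1.03), a kinase that inhibits the complex. The 2 that were at least 2-fold lower, beside 16.4% of all genes, were Pdk4 (-2.53) and Pdp1 (-1.85). They act on the same complex in opposite ways, Pdk4 as an inhibiting kinase and Pdp1 as the activating phosphatase. For Pdk4 the level was 12.6 FPKM in sh-Luc but 1.36 FPKM in sh-CACUL1, and for Pdp1 14.1 and 3.17 FPKM, respectively. Pdp1 had 2.74 FPKM in FLAG and 5.36 in FLAG-CACUL1, so its difference rested on the sh-Luc sample. Against FLAG its value in sh-CACUL1 was 0.16. In FLAG-CACUL1, beside 7.22% of all genes, 4 were at least 2-fold lower. They were Pdk3 (-1.66), Pdk1 (-1.24), Pdhb (-1.23) and Pdpr (-1.12), a regulator of the phosphatase. Pdk1 and Pdk3, both inhibiting kinases, were high in FLAG (56.6 and 50.2 FPKM), lower in FLAG-CACUL1 (23.4 and 15.3 FPKM) and under 10 FPKM in both sh lines. Against sh-Luc their sign in FLAG-CACUL1 therefore turned, to 1.27 and 0.80. With the other control 1 gene of the list (Pdk1) was at least 2-fold higher and 2 were that much lower (Pdk4 and Pdp1) in FLAG-CACUL1. Of all genes 5.04% were that much higher and 4.87% that much lower there. In sh-CACUL1 5 were then higher (Mpc1, Dlat, Pdhb, Pdhx and Pdk2) and 3 lower (Pdk1, Pdk3 and Pdk4), beside 7.45% and 15.4% of all genes.

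The subunits of E1 were thus not equally far from their controls. Pdha1 stood at 0.870 times the level of Pdhb in FLAG and 0.853 times in sh-Luc, but at 1.68 times in FLAG-CACUL1 and 0.391 times in sh-CACUL1. The controls had nearly the same ratio, and the conditions lay on opposite sides of it.

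Of 14 genes for citrate export, malic enzymes and cytosolic partners, 13 had a row and Pck1 had none. At least 2-fold higher in sh-CACUL1 were Mdh1 (1.53), Aco1 (1.39), the cytosolic aconitase, Slc25a1 (1.33), the mitochondrial citrate carrier, and Me1 (1.08), the cytosolic malic enzyme that yields NADPH. None was that much lower than in sh-Luc, beside 4.94% of all genes higher and 16.4% lower. In FLAG-CACUL1 7.22% of all genes were at least 2-fold lower than in FLAG. At least 2-fold lower in FLAG-CACUL1 were Me2 (-2.47), a mitochondrial malic enzyme, Slc25a1 (-1.32), Aco1 (-1.22), Mdh1 (-1.14) and Pck2 (-1.14), the mitochondrial phosphoenolpyruvate carboxykinase. Slc25a1 had 241 FPKM in FLAG and 96.1 in FLAG-CACUL1, beside 81.7 for sh-Luc and 206 for sh-CACUL1. Me2 had 92.0 FPKM in FLAG and between 9.57 and 15.8 FPKM in the other 3 lines, and Pck2 had 54.7 FPKM in FLAG and between 20.6 and 24.3 FPKM elsewhere, so both differences rested on the FLAG sample. With the other control FLAG-CACUL1 had 2 of the 13 at least 2-fold lower, Mdh1 (-1.12) and Acly (-1.03), beside 4.87% of all genes. In sh-CACUL1 3 were then that much higher, Mdh1 (1.51), Glud1 (1.13) and Idh1 (1.00). The 3 that were lower there were Me2 (-2.56), Pck2 (-1.37) and Got1 (-1.01). Of all genes 7.45% were that much higher and 15.4% that much lower in sh-CACUL1 than in FLAG. Slc25a1 turned its sign in both (0.23 and -0.22), and Aco1 (0.62) and Me1 (0.70) were under 2-fold in sh-CACUL1.

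**Figure D5:**
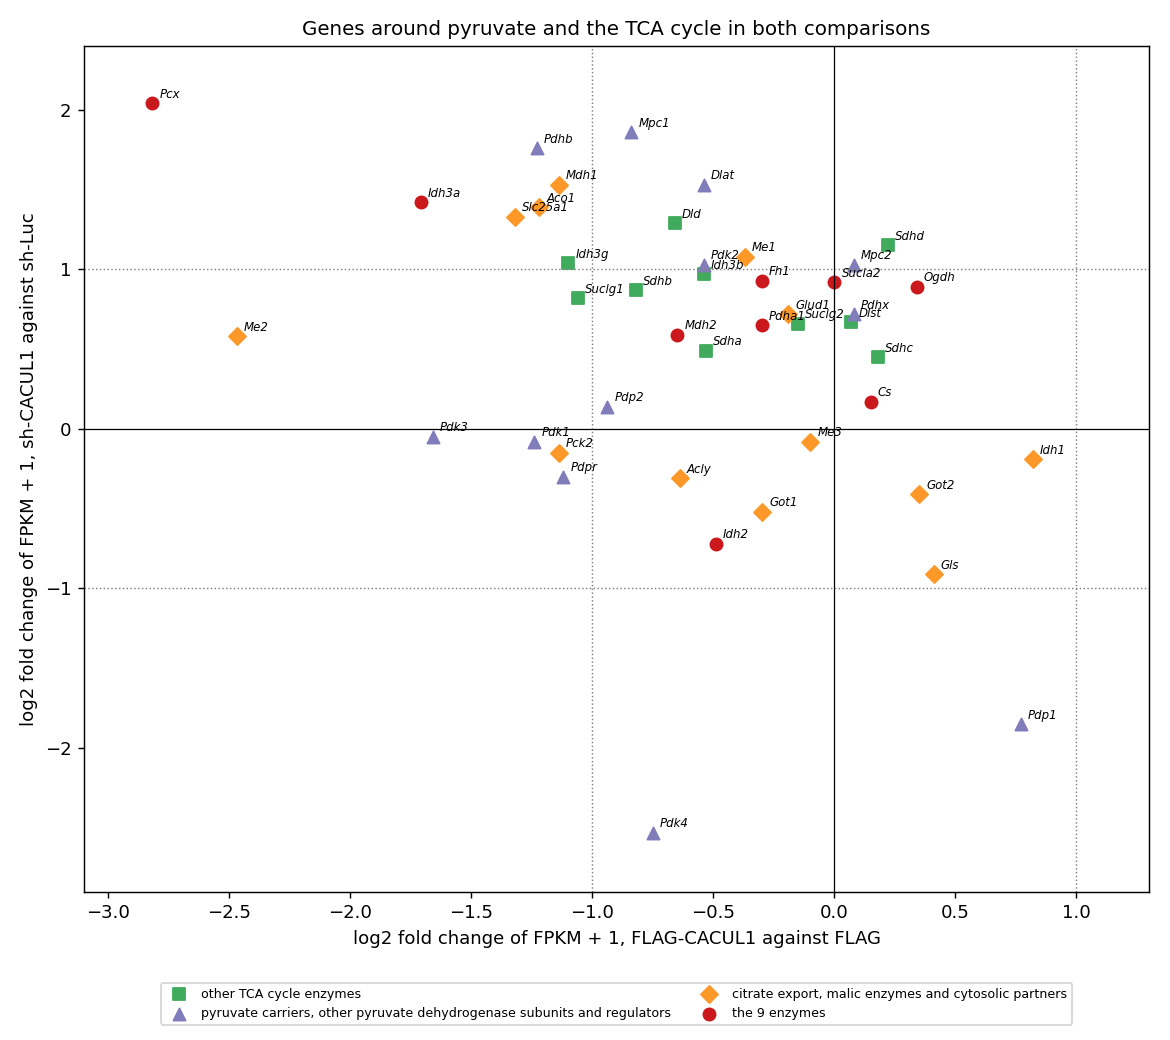
Each point is a gene, with the log2 fold change of FPKM + 1 in FLAG-CACUL1 against FLAG on the horizontal axis and in sh-CACUL1 against sh-Luc on the vertical axis, and dotted lines at 2-fold. The 9 enzymes are red circles, and Pcx and Idh3a lie in the upper left with Pdhb, Mdh1, Aco1, Slc25a1 and Idh3g, beyond 2-fold on both axes.

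Genes with the most similar pattern were sought among the 9563 genes that reached 1 FPKM in each of the 4 samples, by the Euclidean distance between log2(FPKM + 1) profiles centred over the 4 samples. Nearest to the median profile of the 9 enzymes were Cyth1 (distance of 0.07), Ppm1m, Sfxn1, Fbxl6, Ifrd2 and Txndc11 (0.13). Sfxn1, a mitochondrial serine transporter, had 27.2 FPKM in FLAG and 20.2 in FLAG-CACUL1, beside 24.6 for sh-Luc and 42.1 for sh-CACUL1. Among the 9, Fh1 (0.23) and Mdh2 (0.27) were nearest to their median, and Pcx (1.94) and Idh2 (1.10) were farthest.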

How the data were processed

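RNA-seq values of 4 samples were used, 1 per line. A company prepared and sequenced the libraries for the authors, and the authors deposited FPKM values for 13110 RefSeq rows per sample. The submitters' processing notes name mm10 as the genome build. The aligner, the program that computed FPKM and any filter are not given in the sources used here. Symbols were assigned to rows by RefSeq identifier with GENCODE M21 (GRCm38), with rows of a shared symbol summed, which gave 13085 genes. No symbol was found for 196 rows.

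Changes were computed as differences of log2(FPKM + 1), which understates those of low genes, and counted at 2-fold. With 1 sample per group no test was run. Fragments were estimated from the spacing of FPKM multiplied by transcript length in 4241 transcripts of at least 3000 bases. Each member had 1 row. The members and gene lists were chosen with earlier results of these data known. Named were all 9 members, listed genes at 2-fold in either comparison and the 6 genes nearest in profile. Other subunits of ratio pairs were added after their values were seen. Alternatives were another pseudocount, none, a filter on low values, quantile and median-of-ratios scaling, the highest row in place of the sum, the other control and a 3-fold line. Some items of the lists and annotation are not reported here. The script was tested on simulated data. Promoters were read from RefSeq (GRCm38.p6). Python 3.11.15, numpy 2.4.6, pandas 2.3.3, scipy 1.17.1 and matplotlib 3.10.9 were used.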

Additional observations from a re-analysis of the deposited data

How the results depend on the processing

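Of 180 member values recomputed under other settings, 7 had another sign than the value reported, all of them for differences under 2-fold. Many of the 180 could not change sign, because another pseudocount or none keeps the order of the levels. The filter and the choice of row left member values as they were. Only quantile normalization, median-of-ratios scaling and the other control could turn a sign, and all 7 came from these. In FLAG-CACUL1 the median log2 fold change of the 9 enzymes was -0.30, and -0.45 after median-of-ratios scaling. In sh-CACUL1 the count of enzymes at 2-fold was 2, and 5 after quantile normalization, 7 after median-of-ratios scaling, 1 with the other control (Ogdh) and 1 at 3-fold (Pcx). The median there was 0.89, and 1.20, 1.33 and 0.49 under the first 3 of these. Between the controls the count was 1, and 2 after median-of-ratios scaling and 0 at 3-fold, and the median moved from -0.03 to 0.26 under median-of-ratios scaling. The cause of these shifts was not tested. The number of all genes at 2-fold was 1928 in FLAG-CACUL1, and 3161 with a pseudocount of 0.1, 3775 with none and 663 at 3-fold. In sh-CACUL1 it was 2788, and 2991 with the other control, 2262 after quantile normalization and 2202 after median-of-ratios scaling. It was 4799 there with no pseudocount and 936 at 3-fold. Between the controls it was 2750, and 4711 with no pseudocount and 994 at 3-fold. The filter on low values and the choice of row kept every member value, since all 9 were above 1 FPKM in all samples and had 1 row each. No paired analysis was possible because each line had 1 sample. The estimated depth left counting error small for the 9 enzymes, and the spread between cultures is unknown.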

Other observations

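A list of 19 genes of mitochondrial mass and biogenesis was read beside the enzymes. In FLAG-CACUL1 3 of them stood at least 2-fold below FLAG and none that far above it, with a median log2 fold change of -0.20. They were Ppargc1b (-2.11), a coactivator of mitochondrial genes, Vdac1 (-1.43), an outer membrane channel, and Phb2 (-1.06), a prohibitin. None of the 3 was at 2-fold against sh-Luc (-0.50, 0.04 and -0.98, respectively), and Vdac1 stood apart only in FLAG (368 FPKM, and between 131 and 153 FPKM elsewhere). In sh-CACUL1 Hspd1 (1.05), the mitochondrial chaperonin, Phb2 (1.02) and Esrra (1.02), an estrogen-related receptor, were at least 2-fold higher, none was that much lower, and the median was 0.11. Against the other control 1 of the 19 was at least 2-fold lower in FLAG-CACUL1, Tomm70a (-1.06), beside 4.87% of all genes. In sh-CACUL1 Phb (1.46) was then that much higher and Vdac1 (-1.26) that much lower, beside 7.45% and 15.4% of all genes. Hspd1 (0.82), Phb2 (0.94) and Esrra (0.32) were under 2-fold there. Against the control of the same vector 7.22% of all genes were that much lower in FLAG-CACUL1 and 4.94% that much higher in sh-CACUL1.

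Glycolytic genes differed between the controls. Of 17 measured, 15 were at least 2-fold higher in FLAG than in sh-Luc, with a median log2 fold change of 2.08. Of the 9 enzymes 1 was that much higher, with a median of -0.03, and of all genes 8.58% were. Slc2a1, a glucose transporter, had 1063 FPKM in FLAG and 68.2 in FLAG-CACUL1, beside 60.4 for sh-Luc and 14.5 for sh-CACUL1. In FLAG-CACUL1 all 17 were lower than in FLAG (median of -0.85), but against sh-Luc 14 of the 17 were higher (median of 0.88). In sh-CACUL1 3 were at least 2-fold higher and 3 that much lower than in sh-Luc, whereas 15 were that much lower than in FLAG. Of all genes 4.94% were that much higher and 16.4% that much lower than in sh-Luc, and 15.4% that much lower than in FLAG. A test of the difference between both lists was not possible with 1 sample per line.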
